A study of Homo sapiens with 36 samples.

Results

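The 33 genes described here encode the enzymes of cholesterol and fatty acid synthesis together with the main proteins that control them. They were taken by gene symbol from a list of pathway members, with no threshold on expression, and are 33 of the 59041 genes to which the deposited transcripts could be assigned. A sterol arm of 19 genes holds 8 genes of the mevalonate pathway (ACAT2, HMGCS1, MVK, PMVK, MVD, IDI1, FDPS and GGPS1) and 11 genes that make squalene and turn it into cholesterol (FDFT1, SQLE, LSS, CYP51A1, TM7SF2, MSMO1, NSDHL, HSD17B7, EBP, SC5D and DHCR7). A fatty acid arm of 10 genes holds ACLY, ACSS2, AACS, ACACA, FASN, SCD, ELOVL6, FADS1, FADS2 and ME1. The other 4 genes are SREBF1, SREBF2, INSIG1 and STARD4.

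Both arms start from acetyl-CoA in the cytosol, which the mevalonate pathway turns into isoprenoids and then squalene and cholesterol, and which acetyl-CoA carboxylase and fatty acid synthase turn into fatty acids. The transcription factors encoded by SREBF2 and SREBF1 switch on the genes of the sterol arm and of the fatty acid arm with overlapping preferences. They are made as membrane proteins that INSIG1 helps to hold in the endoplasmic reticulum while sterols are plentiful, so that the enzymes and INSIG1 itself tend to be transcribed together when sterols run low. In blood cell cancers the same pathways supply membrane for dividing cells and the isoprenoids that anchor small GTPases.

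The genes were measured by RNA sequencing of the acute myeloid leukemia cell lines HL60, MOLM13 and OCIAML3, all labelled as genotype WT, after 24 hours with cytarabine at 0.1 µM, with daunorubicin at 0.02 µM, with both at these doses (the combination), or with DMSO, the solvent. Cytarabine is a nucleoside analog and daunorubicin an anthracycline, and together they are the backbone of induction therapy for this leukemia. Each of the 12 groups had 3 libraries labelled as biological replicates, and the study asked how each drug alone and the pair changes gene expression in lines that differ in drug sensitivity. Each line is a single bought line, and HL60 and MOLM13 were grown in RPMI with 10% fetal bovine serum but OCIAML3 in alpha-MEM with 20%, so a difference that sets OCIAML3 apart cannot be told apart from its medium and serum. P-values measure the spread between these libraries, whose labels do not say how the cultures were separated.

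The libraries held between 25067734 and 47322144 estimated counts assigned to transcripts, with a median of 32194478. Of 10 myeloid markers, 6 reached 1 TPM (a level scaled for transcript length and library size) in HL60 in DMSO, 9 in MOLM13 and 10 in OCIAML3, while the summed erythroid markers stayed at or under 0.809 TPM and the summed stromal markers at or under 2.07 TPM in every library. Lymphoid markers summed to between 2.57 and 16.7 TPM in HL60 libraries and to less in the other lines. In OCIAML3 a pair of libraries stood apart from their groups: CDKN1A, a target of p53 that DNA damage raises, had 110, 102 and 378 CPM (counts scaled to the size of the library, without a length correction) after cytarabine, 1260, 931 and 391 CPM after daunorubicin, 1389, 1082 and 84.3 CPM after the combination, and 105, 90.6 and 78.5 CPM in DMSO. The library labelled cytarabine replicate 3 thus lay above its group and the library labelled combination replicate 3 lay at the level of DMSO, so results of OCIAML3 are given with all libraries and without these 2.

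The DNA upstream of these genes was searched for motifs that SREBF1, SREBF2 and their partners NF-Y and SP1 are known to read. Whether the motifs bear on the changes described below was not tested. RefSeq (GRCh38.p14) gave a promoter, from 250 bases before to 50 bases after the start, for 29 of the 33 genes, and both strands were searched. Some genes, GGPS1, IDI1 and ACACA among them, had more than 1 such window, and a match in any of them was counted. The shares below are per gene, whatever its number of windows. ACAT2, FASN, FDFT1 and SQLE had no promoter entry and were not searched. The core of a sterol regulatory element, TCACNCCAC, was found in 1 of the 29 (3.45%), the promoter of SREBF2, against 1.39% of 27305 genes with a promoter and 1.51% of the 15842 protein-coding ones. In SREBF2 it is preceded by A, which completes the element and is found so in 0.19% of all and 0.164% of coding genes. The NF-Y box CCAAT was found in 22 of the 29 (75.9%, against 39.7% of all and 42.1% of coding genes), in 14 of 16 members of the sterol arm and 5 of 9 of the fatty acid arm. The GC box GGGCGG was found in 28 (96.6%, against 48.3% of all and 64.3% of coding genes) and the E-box CACGTG in 3, namely INSIG1, LSS and SC5D (10.3%, against 8.77% of all and 10.9% of coding genes). These are matches of letters in a short window, and no test was run on them. The promoters of 4 genes with 1 or 5 CCAAT boxes are printed, with the sterol regulatory element and the CCAAT boxes of either strand (ATTGG on the printed one) in capitals; in NSDHL neighbouring boxes share bases. SREBF2 holds the element and a single box, MVK and NSDHL hold 5 boxes each, and TM7SF2 holds 1. The windows of the other members searched hold between 0 boxes, as in CYP51A1 and PMVK, and 4, in MSMO1. Whether the number of boxes goes with the direction of change was not tested.
SREBF2, chr22:41832855-41833154, plus strand: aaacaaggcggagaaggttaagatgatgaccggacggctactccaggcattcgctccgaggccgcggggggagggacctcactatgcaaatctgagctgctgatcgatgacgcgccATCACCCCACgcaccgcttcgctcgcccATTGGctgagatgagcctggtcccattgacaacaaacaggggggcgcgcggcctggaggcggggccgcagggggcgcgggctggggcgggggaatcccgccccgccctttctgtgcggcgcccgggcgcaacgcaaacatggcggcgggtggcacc
MVK, chr12:109573544-109573843, plus strand: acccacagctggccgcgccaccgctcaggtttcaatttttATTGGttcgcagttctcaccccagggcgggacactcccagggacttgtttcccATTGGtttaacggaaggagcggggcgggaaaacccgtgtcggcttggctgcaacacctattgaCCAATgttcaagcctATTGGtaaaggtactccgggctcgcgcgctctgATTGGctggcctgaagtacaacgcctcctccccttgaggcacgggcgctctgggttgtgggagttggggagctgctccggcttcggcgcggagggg
NSDHL, chrX:152830813-152831112, plus strand: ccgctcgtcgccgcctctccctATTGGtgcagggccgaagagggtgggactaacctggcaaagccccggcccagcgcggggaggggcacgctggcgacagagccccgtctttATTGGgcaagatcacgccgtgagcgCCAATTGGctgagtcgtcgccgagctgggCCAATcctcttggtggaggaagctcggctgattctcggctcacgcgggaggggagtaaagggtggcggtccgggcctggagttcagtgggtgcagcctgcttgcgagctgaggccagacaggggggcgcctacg
TM7SF2, chr11:65111622-65111921, plus strand: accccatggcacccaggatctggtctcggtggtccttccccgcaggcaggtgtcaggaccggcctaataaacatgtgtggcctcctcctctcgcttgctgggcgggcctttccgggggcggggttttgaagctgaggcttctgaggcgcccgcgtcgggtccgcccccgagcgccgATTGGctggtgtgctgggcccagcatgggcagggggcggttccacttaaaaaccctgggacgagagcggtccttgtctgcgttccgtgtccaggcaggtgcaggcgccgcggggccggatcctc

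In DMSO the 33 genes spanned a wide range of levels, compared here per length in TPM. FDPS, which makes farnesyl diphosphate, was the highest in all 3 lines, with 337 ± 10.3 TPM in HL60, 256 ± 30.1 TPM in MOLM13 and 336 ± 32.6 TPM in OCIAML3 (SD, n = 3 each). SCD, which introduces the double bond of oleic acid, followed in HL60 with 318 ± 34.4 TPM and in MOLM13 with 236 ± 76.2 TPM, and its libraries overlapped with those of FDPS in both lines. In OCIAML3 the order behind FDPS was FASN at 183 ± 5.38 TPM, ACLY at 165 ± 4.31 TPM and SCD at 125 ± 5.85 TPM, with no overlap between neighbours. ME1, a malic enzyme that makes NADPH for fatty acid synthesis, was the lowest member in HL60 with 6.33 ± 0.614 TPM and in MOLM13 with 1.94 ± 0.194 TPM, but reached 17.8 ± 0.521 TPM in OCIAML3. ELOVL6, which elongates palmitate, averaged 25.5 ± 4.87 TPM in HL60, 7.92 ± 1.66 TPM in MOLM13 and 0.00473 ± 0.00818 TPM in OCIAML3, where it did not pass the filter on low counts, so that 33, 33 and 32 members were tested in the 3 lines. Between lines in DMSO, edgeR's quasi-likelihood test with a Benjamini-Hochberg false discovery rate (FDR) under 0.05 called 12 members higher and 7 lower in HL60 than in MOLM13, 16 higher and 5 lower in HL60 than in OCIAML3, and 21 higher and 5 lower in MOLM13 than in OCIAML3. Of all 19053 genes in that fit, 22.7% were higher and 30.3% lower in the first of these pairs, 28.1% and 34.4% in the second, and 28.1% and 26.9% in the third.

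**Figure D1:**
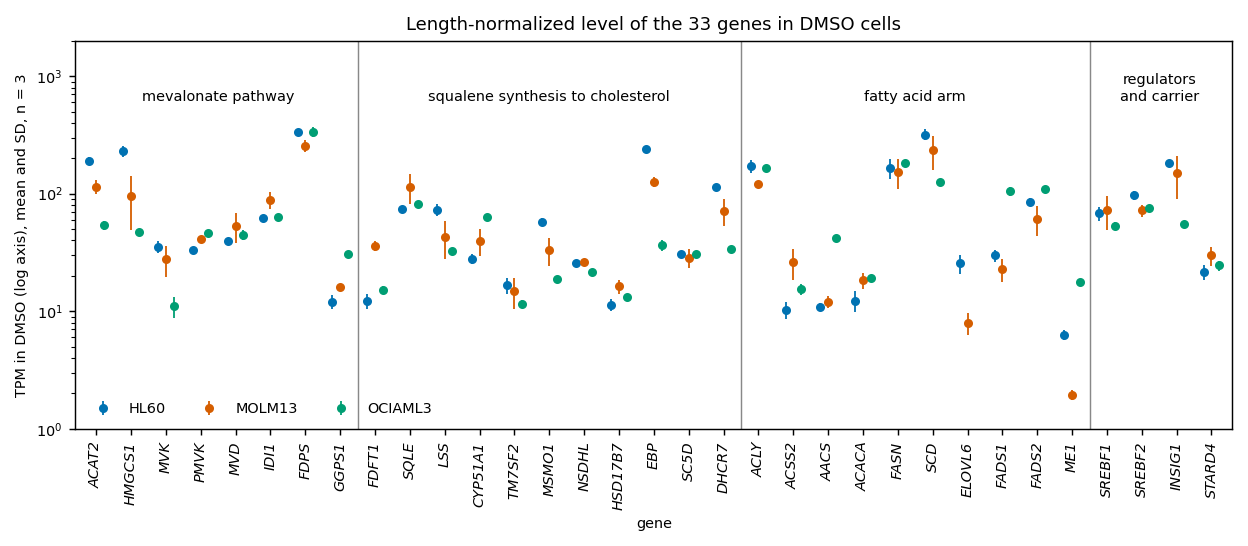
Level of the 33 genes in DMSO in TPM (log axis), as the mean with its SD over 3 libraries for each cell line, grouped by pathway role. FDPS is the highest gene in each line, and ELOVL6 in OCIAML3, with a mean under 1 TPM, is not drawn.

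In HL60, cytarabine lowered both arms, although a few genes went up. Of the 33 genes, 4 rose and 16 fell, where 23.6% of 15608 tested genes rose and 22% fell; rose and fell here and throughout mean an FDR under 0.05 in edgeR's quasi-likelihood test of the 12 libraries of a line, adjusted over all genes. The sterol arm had 1 gene higher and 9 lower of 19, with a median log2 fold change of -0.38, and the fatty acid arm 3 higher and 5 lower of 10 with a median of -0.47, beside a median of 0.01 over all genes. More than 2-fold, 3 rose and 6 fell, as 13.7% and 3.12% of all genes did. Every cytarabine library lay above every DMSO library in 5 members and below in 18, against 27.8% and 27.2% of all genes. Because the RNA came from bulk cultures, fewer cells expressing a gene and less RNA per cell cannot be told apart. Within the sterol arm, 8 of the 11 genes from squalene synthesis on fell but only HMGCS1 of the 8 mevalonate genes. With the replicate number as a block, which HL60 libraries support, 24 members passed in place of 20 (28.4% of all genes higher and 28.5% lower), MVK, PMVK, FADS2 and SREBF1 being added on the lower side.

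HMGCS1, which makes HMG-CoA at the head of the mevalonate pathway, had 210, 218 and 269 CPM after cytarabine, against 628, 501 and 475 CPM in DMSO (log2 fold change -1.20 ± 0.24, SE). SQLE, the squalene epoxidase, had 68.9, 92.6 and 91.1 CPM, against 200, 197 and 185 CPM in DMSO (-1.20 ± 0.15). All cytarabine libraries of both genes lay below all DMSO libraries. FDFT1, the squalene synthase, had 5.38, 3.39 and 4.21 CPM, against 13, 11.5 and 12.6 CPM in DMSO (-1.52 ± 0.23). Its cytarabine libraries held 165, 109 and 144 counts. Protein-coding transcripts held 90.6% of its counts after cytarabine and 72.8% in DMSO, so part of the fall lay in its other transcripts. MSMO1, which removes methyl groups from lanosterol-derived sterols, had 38.5, 46.6 and 64.9 CPM, against 87.5, 86.7 and 101 CPM in DMSO (-0.88 ± 0.23). CYP51A1, DHCR7, LSS, NSDHL and EBP fell by smaller amounts, with log2 fold changes between -0.84 and -0.39. TM7SF2, a sterol reductase whose reaction LBR can also carry out, was the exception of the arm, with 56, 43.1 and 56 CPM after cytarabine, against 25.2, 19.2 and 15.9 CPM in DMSO (1.36 ± 0.21), a gap with no overlap.

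In the fatty acid arm of HL60, 5 genes fell after cytarabine, among them those of chain building, elongation and the first double bond, and 3 rose. FASN, the fatty acid synthase, had 369, 515 and 462 CPM after cytarabine, against 1081, 1353 and 1354 CPM in DMSO (-1.49 ± 0.18). SCD had 543, 666 and 793 CPM, against 1382, 1536 and 1499 CPM in DMSO (-1.14 ± 0.21). ELOVL6 had 49.1, 55.3 and 48.7 CPM, against 107, 105 and 83.7 CPM in DMSO (-0.95 ± 0.13). Each of these 3 genes was separated from DMSO in every library. ACACA, the acetyl-CoA carboxylase, had 25.7, 83.2 and 57.3 CPM, against 85.9, 120 and 93.1 CPM in DMSO (-0.85 ± 0.32), and its replicates spread so widely that the call was lost when any 1 of 9 libraries was left out, with an FDR of up to 0.146. ACLY, the citrate lyase, fell as well (-0.54 ± 0.13). ME1 had 50.9, 53.6 and 45.8 CPM after cytarabine, against 18.9, 19 and 16.3 CPM in DMSO (1.47 ± 0.14). ACSS2, which makes acetyl-CoA from acetate, had 44.8, 39.1 and 53 CPM, against 22.8, 19.9 and 15.9 CPM in DMSO (1.23 ± 0.16). AACS, which makes acetoacetyl-CoA from ketone bodies, had 56.5, 62.2 and 54.2 CPM, against 33.5, 30.7 and 33.4 CPM in DMSO (0.82 ± 0.10). The 3 genes that rose were above DMSO in every library.

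Daunorubicin alone left most of the 33 genes of HL60 without a call: 5 rose and 1 fell, where 12.8% of all genes rose and 9.14% fell. More than 2-fold, 2 rose and 0 fell, as 6.76% and 0.538% of all genes did, and every daunorubicin library lay above every DMSO library in 12 members and below in 3 (20.7% and 19.6% of all genes). The medians were 0.09 for the sterol arm and 0.18 for the fatty acid arm, beside 0.01 for all genes. TM7SF2 had 90.9, 68 and 58.1 CPM after daunorubicin, against 25.2, 19.2 and 15.9 CPM in DMSO (1.85 ± 0.22). ACSS2 had 63.1, 58.2 and 52.5 CPM, against 22.8, 19.9 and 15.9 CPM in DMSO (1.57 ± 0.16). Both were higher in every daunorubicin library than in any DMSO library. AACS had 61.3, 63.3 and 52.5 CPM, against 33.5, 30.7 and 33.4 CPM in DMSO (0.86 ± 0.10), and ME1 had 29.1, 29.5 and 25.4 CPM, against 18.9, 19 and 16.3 CPM in DMSO (0.63 ± 0.14). MVD, the mevalonate diphosphate decarboxylase, had 98.4, 75.8 and 81.9 CPM, against 61, 50.3 and 50.8 CPM in DMSO (0.66 ± 0.17), a call lost without any 1 of 3 libraries. The gene that fell was FDFT1, with 7.33, 6.47 and 7.6 CPM, against 13, 11.5 and 12.6 CPM in DMSO (-0.80 ± 0.23, FDR 0.0246), and its call was lost without any 1 of 4 libraries and when protein-coding transcripts alone were summed (-0.48, FDR 0.257). FASN, with 989, 877 and 1199 CPM (-0.31 ± 0.18, FDR 0.242), and HMGCS1, with 578, 524 and 686 CPM (0.16 ± 0.23, FDR 0.68), had no call after daunorubicin. SQLE had 135, 141 and 177 CPM, below every DMSO library, and missed the threshold (-0.36 ± 0.15, FDR 0.0996). With the replicate block 11 members passed in place of 6 (19.3% of all genes higher and 18.3% lower), ACAT2, IDI1, FDPS and FADS1 on the higher side and SQLE on the lower.

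After the combination, 5 of the 33 genes rose in HL60 and 18 fell, where 28.1% of all genes rose and 25.3% fell. The sterol arm had 1 gene higher and 11 lower with a median log2 fold change of -0.57, and the fatty acid arm 4 higher and 5 lower with a median of -0.58, beside 0.04 for all genes. More than 2-fold, 3 rose and 9 fell, as 17% and 6.29% of all genes did, and every combination library lay above every DMSO library in 5 members and below in 19 (31.3% and 28.8% of all genes). FASN had 275, 202 and 330 CPM after the combination, against 1081, 1353 and 1354 CPM in DMSO (-2.23 ± 0.19), the largest fall of any member in any comparison. SCD had 509, 385 and 771 CPM, against 1382, 1536 and 1499 CPM in DMSO (-1.41 ± 0.21), and ELOVL6 had 45, 38.5 and 52.3 CPM, against 107, 105 and 83.7 CPM in DMSO (-1.12 ± 0.13). ACACA had 36.8, 41.2 and 34.8 CPM, against 85.9, 120 and 93.1 CPM in DMSO (-1.41 ± 0.33), this time with close replicates. In the sterol arm FDFT1 had 4.01, 2.41 and 4.44 CPM, against 13, 11.5 and 12.6 CPM in DMSO (-1.78 ± 0.23). Protein-coding transcripts held 86.4% of its counts after the combination (68.6% to 96.5% per library) and 72.8% in DMSO (64.7% to 82.8%). SQLE had 60, 58.7 and 80.8 CPM, against 200, 197 and 185 CPM in DMSO (-1.54 ± 0.15). HMGCS1 had 202, 111 and 258 CPM, against 628, 501 and 475 CPM in DMSO (-1.49 ± 0.24). Combination replicate 2 was the lowest of its group for these 3 sterol genes, and no library of the group reached the lowest DMSO library. CYP51A1, which removes a methyl group of lanosterol, had 31.3, 23.9 and 31.4 CPM, against 75.8, 69.4 and 61.5 CPM in DMSO (-1.26 ± 0.13).

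The genes that rose after the combination in HL60 were again TM7SF2, ME1, ACSS2 and AACS, joined by FADS1. TM7SF2 had 77.2, 49.3 and 72 CPM after the combination, against 25.2, 19.2 and 15.9 CPM in DMSO (1.72 ± 0.22). ME1 had 45.5, 56.6 and 38.8 CPM, against 18.9, 19 and 16.3 CPM in DMSO (1.38 ± 0.14). ACSS2 had 51.2, 36.7 and 46.6 CPM, against 22.8, 19.9 and 15.9 CPM in DMSO (1.20 ± 0.16), and like TM7SF2 and ME1 it did not overlap with DMSO. AACS had 58.9, 64.5 and 59.7 CPM, against 33.5, 30.7 and 33.4 CPM in DMSO (0.91 ± 0.10). FADS1, the fatty acid desaturase that makes arachidonic acid, had 134, 137 and 223 CPM, against 114, 125 and 113 CPM in DMSO (0.49 ± 0.17, FDR 0.0273), a call lost without any 1 of 3 libraries, combination replicate 3 among them. The call of PMVK, which fell (-0.57 ± 0.17), was also lost without any 1 of 3 libraries. With the replicate block 28 members passed in place of 23 (32.5% of all genes higher and 30.5% lower).

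Tested directly, the 2 drugs differed in HL60 in 22 of the 33 genes, 21 of them higher after daunorubicin than after cytarabine, where 8.62% of all genes were higher and 7.87% lower; the count was 12 without cytarabine replicate 1 and 11 without daunorubicin replicate 3. The largest differences were in HMGCS1 (1.36 ± 0.24), FASN (1.19 ± 0.18) and INSIG1 (1.13 ± 0.21) on the log2 scale. ME1 was the member called lower after daunorubicin (-0.84 ± 0.14), its cytarabine libraries lying at 45.8 CPM or above and its daunorubicin libraries at 29.5 CPM or below. The combination differed from daunorubicin in 25 genes, 24 of them lower, led by FASN (-1.92 ± 0.18) and HMGCS1 (-1.65 ± 0.24), where 16.1% of all genes were higher and 16.9% lower. From cytarabine the combination differed in 0 members at this FDR, with 6 members and 1342 of all genes at an unadjusted p under 0.05; FASN differed by -0.74 ± 0.18, so equal effects were not shown. With the replicate block 27 members differed between daunorubicin and cytarabine, 26 of them higher (18.2% of all genes higher and 15.6% lower), and 27 between the combination and daunorubicin, 26 of them lower (23.5% higher and 23.7% lower). Between the combination and cytarabine MVK and FASN were then called, both lower (0.897% of all genes higher and 2.21% lower). Of 9 tested myeloid markers in HL60, 4 rose and 3 fell after cytarabine, with a median log2 fold change of 1.26, 3 rose and 0 fell after daunorubicin (-0.04), and 4 rose and 3 fell after the combination (1.44). Their summed level lay between 755 and 912 TPM after cytarabine, 1238 and 1793 TPM after daunorubicin, 624 and 664 TPM after the combination, and 1378 and 2000 TPM in DMSO; their part in these results was not tested.

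**Figure D2:**
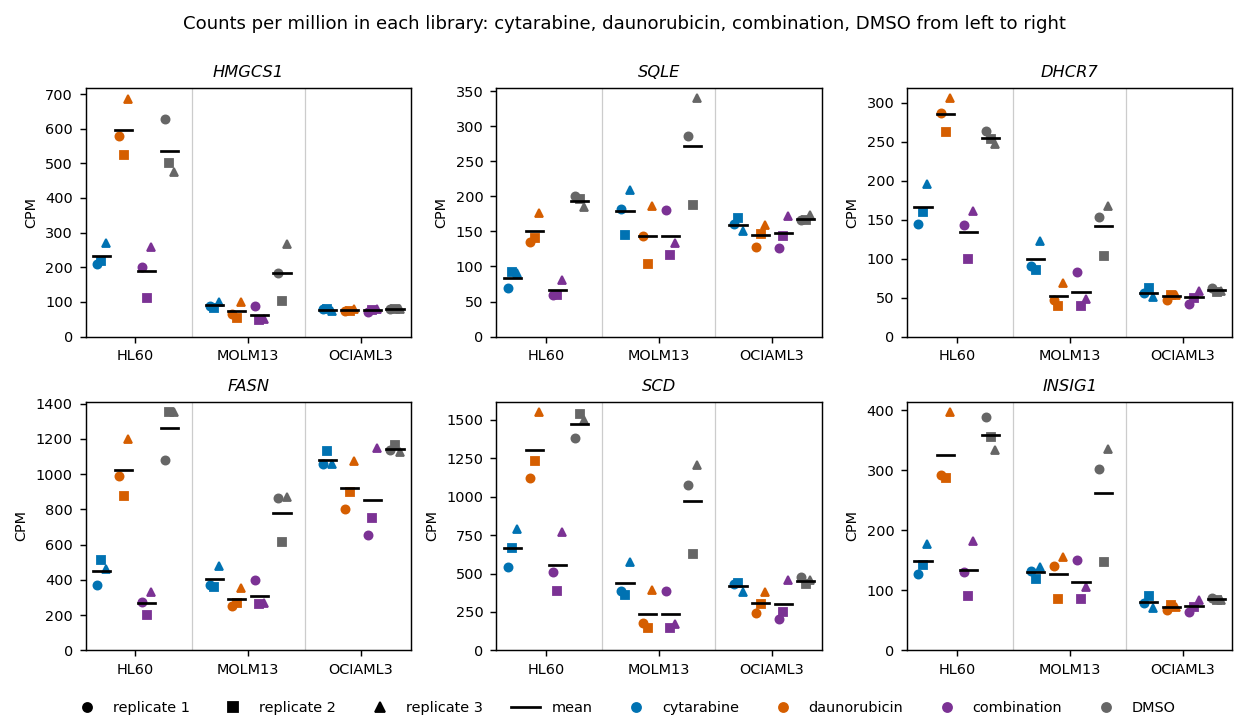
CPM of HMGCS1, SQLE, DHCR7, FASN, SCD and INSIG1 in each library (symbols are replicates, lines the mean of 3), with cytarabine, daunorubicin, combination and DMSO from left to right in each cell line. In HL60 the daunorubicin libraries lie near DMSO and the cytarabine and combination libraries below, in MOLM13 the treated groups lie below most DMSO libraries, and in OCIAML3 combination replicate 3 lies with DMSO.

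In MOLM13, 3 of the 33 genes rose after cytarabine and 8 fell, where 17.1% of 16184 tested genes rose and 17.8% fell. The sterol arm had 1 gene higher and 5 lower with a median of -0.21, and the fatty acid arm 2 higher and 2 lower with a median of -0.38, beside 0.02 for all genes. TM7SF2 rose more than 2-fold and HMGCS1 and INSIG1 fell by as much, as 7.11% and 1.03% of all genes did, and every cytarabine library lay above every DMSO library in 4 members and below in 10 (26.5% and 26.9% of all genes). DMSO replicate 2 was the lowest of the DMSO libraries for most members, and the count of 11 calls became 7 without DMSO replicate 1 and 7 without cytarabine replicate 1. HMGCS1 had 87.3, 82.1 and 101 CPM after cytarabine, against 182, 102 and 266 CPM in DMSO (-1.02 ± 0.34), with cytarabine replicate 3 next to DMSO replicate 2. LSS, the lanosterol synthase, had 58.7, 54.8 and 75.6 CPM, against 118, 71 and 140 CPM in DMSO (-0.80 ± 0.29), and its groups overlapped. CYP51A1 had 47.8, 50.7 and 54.4 CPM, against 92.4, 60.6 and 102 CPM in DMSO (-0.74 ± 0.21). The calls of HMGCS1, LSS and CYP51A1 were lost without any 1 of 6, 7 and 3 libraries, DMSO replicates 1 and 3 among them, with an FDR of up to 0.169, 0.181 and 0.0714. PMVK, the phosphomevalonate kinase, had 21.3, 20.4 and 21.4 CPM, against 28.4, 31 and 31.8 CPM in DMSO (-0.53 ± 0.10), and FDFT1 fell with it (-0.44 ± 0.08). FASN had 370, 361 and 479 CPM, against 863, 614 and 869 CPM in DMSO (-0.96 ± 0.20). ELOVL6 had 18.1, 18.1 and 22.4 CPM, against 37.7, 32.1 and 39.7 CPM in DMSO (-0.90 ± 0.16). SCD, with 388, 361 and 573 CPM, against 1079, 625 and 1205 CPM in DMSO, had a log2 fold change of -1.14 ± 0.43 but missed the threshold (FDR 0.0625). TM7SF2 had 30.9, 38.5 and 34.2 CPM, against 11.4, 14.7 and 19.2 CPM in DMSO (1.19 ± 0.19). ME1 had 9.3, 9.1 and 7.31 CPM, against 5.41, 4.81 and 4.54 CPM in DMSO (0.80 ± 0.20), and AACS had 44.2, 44.5 and 51.6 CPM, against 28.1, 35.5 and 34.7 CPM in DMSO (0.51 ± 0.11).

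The paper's viability assay, at the same dose and duration, found most MOLM13 cells dead after daunorubicin but few HL60 cells. Most of the genes were lower in MOLM13 after daunorubicin, in both arms, and the part of cell death in this was not tested. Of the 33, 2 rose and 24 fell, where 26.9% of all genes rose and 25.7% fell, and 16 of the 24 fell more than 2-fold while TM7SF2 alone rose by as much, where 5.71% and 11.3% of all genes did. Every daunorubicin library lay above every DMSO library in 2 members and below in 23, against 32% and 30.4% of all genes. The sterol arm had 1 gene higher and 15 lower with a median log2 fold change of -1.01, and the fatty acid arm 1 higher and 7 lower with a median of -1.18, beside 0.07 for all genes. Here the mevalonate pathway took part, with 6 of its 8 genes lower and a median of -1.06, next to 9 of 11 and -0.92 for the genes from squalene synthesis on. ACAT2, the thiolase that condenses acetyl-CoA, had 49.1, 30.1 and 68.2 CPM after daunorubicin, against 118, 110 and 138 CPM in DMSO (-1.31 ± 0.37). HMGCS1 had 66.2, 52.6 and 100 CPM, against 182, 102 and 266 CPM in DMSO (-1.33 ± 0.34). DHCR7, which carries out a last step on the way to cholesterol, had 46.9, 39.7 and 68.8 CPM, against 153, 104 and 168 CPM in DMSO (-1.45 ± 0.30). Daunorubicin replicate 3 was the highest of its group for most members, and yet it stayed below every DMSO library for these 3 genes. LSS had 41.1, 33.9 and 62.1 CPM, against 118, 71 and 140 CPM in DMSO (-1.26 ± 0.29).

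In the fatty acid arm of MOLM13, the desaturases fell most after daunorubicin. SCD had 176, 146 and 391 CPM, against 1079, 625 and 1205 CPM in DMSO (-2.03 ± 0.45). FADS1 had 16.6, 11.7 and 28.3 CPM, against 78.5, 57.5 and 92.9 CPM in DMSO (-2.02 ± 0.35). FADS2, the desaturase that acts before FADS1 on polyunsaturated fatty acids, had 30.6, 16.3 and 75 CPM, against 160, 103 and 177 CPM in DMSO (-1.86 ± 0.64), and its call was lost without any 1 of 4 libraries (FDR up to 0.0941). FADS1 and FADS2 overlap on opposite strands of chromosome 11, where the gene models span 61799627 to 61829318 and 61792980 to 61867354 (GRCh38), and the libraries were unstranded, so reads in the overlap cannot be told apart. FASN had 250, 266 and 353 CPM, against 863, 614 and 869 CPM in DMSO (-1.43 ± 0.20). TM7SF2 went the other way, with 49.9, 34 and 50.3 CPM after daunorubicin, against 11.4, 14.7 and 19.2 CPM in DMSO (1.57 ± 0.20). AACS was the other gene that rose, with 44.3, 45.7 and 50.9 CPM, against 28.1, 35.5 and 34.7 CPM in DMSO (0.52 ± 0.11). ACSS2 and ME1 had no call (log2 fold changes 0.04 ± 0.18 and -0.23 ± 0.20). The calls of IDI1, SC5D, SQLE, INSIG1 and SREBF1 were also lost when 1 library was left out, in each case with a DMSO library among those that mattered, and that of MVK was lost when protein-coding transcripts alone were summed (-0.92, FDR 0.0666).

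The combination gave nearly the same picture in MOLM13, with 2 genes higher and 24 lower, where 27% of all genes rose and 26% fell. More than 2-fold, 1 rose and 16 fell, as 11.8% and 5.61% of all genes did, and every combination library lay above every DMSO library in 3 members and below in 21 (30.3% and 29.3% of all genes). The medians were -0.96 for the sterol arm and -1.14 for the fatty acid arm, beside 0.07 for all genes. SCD had 388, 148 and 170 CPM after the combination, against 1079, 625 and 1205 CPM in DMSO (-2.04 ± 0.45). FADS2 had 85.6, 13.4 and 23.1 CPM, against 160, 103 and 177 CPM in DMSO (-1.85 ± 0.64), and FADS1 had 33.9, 15.1 and 17.5 CPM, against 78.5, 57.5 and 92.9 CPM in DMSO (-1.78 ± 0.35). Combination replicate 1 was the highest of its group for all 3 and the closest to DMSO. HMGCS1 had 88.5, 46.9 and 51.9 CPM, against 182, 102 and 266 CPM in DMSO (-1.55 ± 0.35). ACAT2 had 81.4, 25.9 and 36.5 CPM, against 118, 110 and 138 CPM in DMSO (-1.34 ± 0.37), and DHCR7 had 83.4, 39.5 and 48.7 CPM, against 153, 104 and 168 CPM in DMSO (-1.30 ± 0.29). LSS had 60.9, 35.2 and 39.7 CPM, against 118, 71 and 140 CPM in DMSO (-1.28 ± 0.29), and FASN had 401, 261 and 267 CPM, against 863, 614 and 869 CPM in DMSO (-1.34 ± 0.20). No combination library of these 5 genes reached the lowest DMSO library. The genes that rose were TM7SF2, with 45, 35.8 and 39.8 CPM, against 11.4, 14.7 and 19.2 CPM in DMSO (1.41 ± 0.20), and AACS, with 44.3, 46.5 and 51.8 CPM, against 28.1, 35.5 and 34.7 CPM in DMSO (0.54 ± 0.11). The calls of FADS2, HSD17B7, IDI1, MVK and NSDHL were lost without combination replicate 3, and all but that of NSDHL without other single libraries too. That of MVK was also lost when protein-coding transcripts alone were summed (-0.70, FDR 0.143).

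Between the drugs in MOLM13, daunorubicin gave 9 members lower and 0 higher than cytarabine, where 12.6% of all genes were higher and 13.5% lower. FADS1 differed most (-1.67 ± 0.35), followed by ACAT2 (-1.27 ± 0.37) and ME1 (-1.04 ± 0.20), and IDI1, EBP, DHCR7, FDPS, NSDHL and ACLY were the others. This count rested on single libraries: it was 4, 5 and 4 without cytarabine replicates 1, 2 and 3, 4, 3 and 15 without daunorubicin replicates 1, 2 and 3, and 16 without combination replicate 1. The combination gave 8 members lower than cytarabine, where 12.5% of all genes were higher and 13.9% lower. The combination and daunorubicin did not differ in any member at this FDR or at an unadjusted p under 0.05, where 320 of all genes had such an unadjusted p, and for FASN the difference was 0.10 ± 0.20 and for SCD -0.01 ± 0.43. Summed myeloid markers lay between 4550 and 4793 TPM after cytarabine, 4371 and 6004 TPM after daunorubicin, 4935 and 5474 TPM after the combination, and 3728 and 4788 TPM in DMSO, and their part in these differences was not tested.

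**Figure D3:**
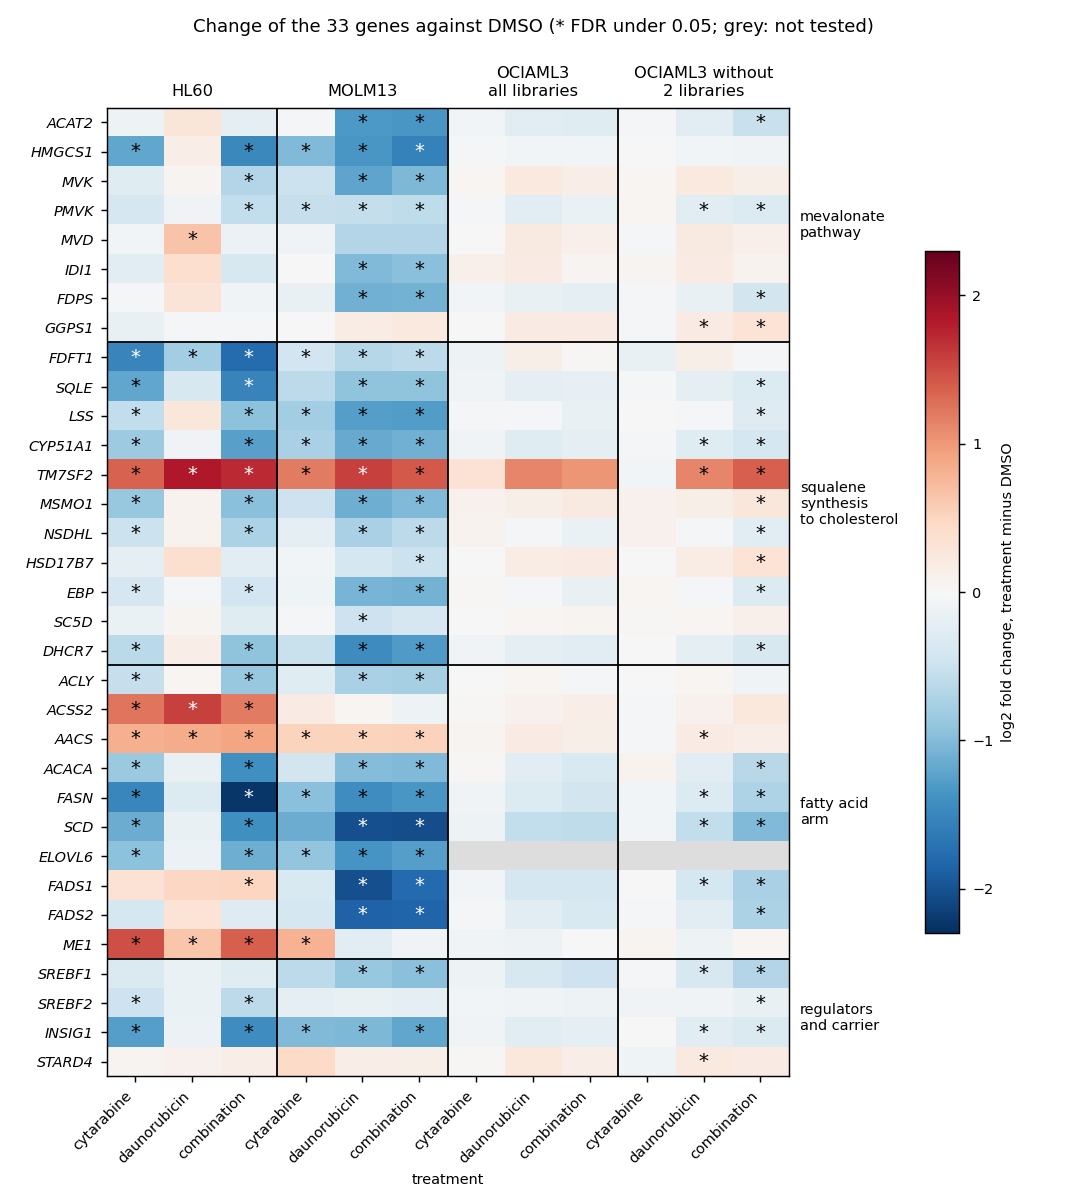
Log2 fold change of each of the 33 genes against DMSO (colour; asterisks mark an FDR under 0.05, grey not tested), for 3 treatments in HL60, MOLM13, OCIAML3 with all libraries and OCIAML3 without 2 libraries. TM7SF2 stands out as higher in rows that are otherwise lower, with log2 fold changes of 1.85 in HL60 and 1.57 in MOLM13 after daunorubicin.

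In OCIAML3 with all 12 libraries, 0 of 32 members passed the FDR under edgeR after any treatment, as did 0% of all 16650 genes, while an unadjusted p under 0.05 was reached by 0 members with cytarabine, by 8 with daunorubicin and by 4 with both drugs. DESeq2 called 1 member after daunorubicin. Without cytarabine replicate 3 and combination replicate 3, cytarabine still gave 0 calls among members and 0% among 16891 genes, with medians of -0.01 for the sterol arm and -0.03 for the fatty acid arm. Daunorubicin then gave 4 members higher and 7 lower, where 15.3% of all genes were higher and 16% lower. The combination gave 4 higher and 17 lower, where 20.1% were higher and 21.6% lower. By more than 2-fold, TM7SF2 rose after daunorubicin and 0 fell, as 3.61% and 0.539% of all genes did, and after the combination TM7SF2 rose and SCD fell, as 5.9% and 1.96% did. With all libraries, those of daunorubicin lay wholly above DMSO in 8 members and below in 12 (22.8% and 24.1% of all genes), those of cytarabine in 1 and 0 (4.59% and 4.65%) and those of the combination in 1 and 2 (7.78% and 8.23%). Without the 2 libraries the cytarabine libraries lay wholly above in 1 and below in 2 (8.98% and 9.18%), and those of the combination in 7 and 19 (32.1% and 31.8%).

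TM7SF2 had 23.3, 23.7 and 16.1 CPM after daunorubicin, 22.9, 27.1 and 8.68 CPM after the combination and 10.4, 9.78 and 8.89 CPM in DMSO. The log2 fold change after daunorubicin was 1.12 ± 0.38 (FDR 0.124) with all libraries and 1.12 ± 0.15 (FDR 0.00147) without the 2. After the combination it was 1.01 ± 0.38 (FDR 0.209) with all libraries and 1.37 ± 0.16 (FDR 0.000543) without the 2, and combination replicate 3 lay below all DMSO libraries while the other combination libraries lay far above. Cytarabine gave 9.35, 9.23 and 18 CPM, and replicate 3 of that group alone lay above all DMSO libraries. SCD had 242, 303 and 378 CPM after daunorubicin, 201, 251 and 458 CPM after the combination and 476, 430 and 456 CPM in DMSO, with log2 fold changes without the 2 libraries of -0.56 ± 0.14 and -1.01 ± 0.16. FASN had 800, 897 and 1074 CPM after daunorubicin, 657, 751 and 1150 CPM after the combination and 1136, 1168 and 1128 CPM in DMSO, with -0.31 ± 0.10 and -0.70 ± 0.11. FADS1 had 189, 232 and 257 CPM after daunorubicin, 159, 199 and 325 CPM after the combination and 304, 295 and 301 CPM in DMSO, with -0.41 ± 0.11 and -0.75 ± 0.12. In each of these 3 genes combination replicates 1 and 2 were the lowest libraries of their group, and daunorubicin replicate 3 was the highest of its own.

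In the sterol arm of OCIAML3 without the 2 libraries, ACAT2 fell after the combination, with 30.2, 41.3 and 54.2 CPM, against 46.7, 51 and 54.8 CPM in DMSO (-0.51 ± 0.13), the last combination value being that of the library left out of the fit. FDPS had 156, 192 and 253 CPM, against 217, 229 and 252 CPM in DMSO (-0.42 ± 0.10), and CYP51A1 had 87.7, 97.2 and 130 CPM, against 116, 123 and 130 CPM in DMSO (-0.41 ± 0.09). DHCR7 had 42.2, 50.1 and 58.9 CPM, against 62.3, 56.8 and 58.9 CPM in DMSO (-0.36 ± 0.09), and as with the others its replicates 1 and 2 lay below all DMSO libraries. HMGCS1 fell in HL60 after cytarabine and the combination and in MOLM13 after each treatment. In OCIAML3 it had 73.7, 74.6 and 78.4 CPM after daunorubicin, 72, 78 and 78.4 CPM after the combination and 78.4, 78.6 and 80.4 CPM in DMSO. Without the 2 libraries its log2 fold change after the combination was -0.08 ± 0.06 (FDR 0.295). Besides TM7SF2, 3 genes rose after the combination by small amounts, HSD17B7, a sterol ketone reductase, with 14.4, 14.7 and 11 CPM, against 10.7, 12 and 12.4 CPM in DMSO (0.32 ± 0.09), GGPS1, which makes geranylgeranyl diphosphate, with 44, 46.7 and 33.6 CPM, against 35.2, 37.7 and 36.4 CPM in DMSO (0.31 ± 0.07), and MSMO1 with 26.9, 29.9 and 24.5 CPM, against 23.5, 22.4 and 24.7 CPM in DMSO (0.27 ± 0.09). Counts of HSD17B7 may be shared with a pseudogene copy. After daunorubicin GGPS1 rose (0.19 ± 0.06) and PMVK (-0.26 ± 0.09) and CYP51A1 (-0.27 ± 0.08) fell. FADS2, with 112, 166 and 260 CPM, against 219, 227 and 243 CPM in DMSO (-0.72 ± 0.19), and ACACA (-0.64 ± 0.11) fell after the combination, and AACS rose after daunorubicin (0.19 ± 0.06). The drugs differed in 8 members without the 2 libraries, where 11.1% of all genes were higher after daunorubicin and 12.4% lower, and in 0 with all libraries, with 2 at an unadjusted p under 0.05.

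Whether a treatment acted differently on the genes in different lines was tested as an interaction over all 36 libraries, and again without the 2 OCIAML3 libraries that stood apart. The paper reports that cell death after either drug alone also differed between the lines. Its part in the differences given below was not tested. After daunorubicin the effect was higher in HL60 than in MOLM13 for 24 members and lower for 0, where 13.9% of 19053 genes were higher and 6.69% lower. FADS1 differed most (2.55 ± 0.39, FDR 5.46e-05), with log2 fold changes of 0.48 in HL60 and -2.02 in MOLM13. ACSS2 differed by 1.59 ± 0.24. The daunorubicin effect was lower in MOLM13 than in OCIAML3 for 17 members and higher for 0, where 7.47% of all genes were lower and 3.29% higher, and it differed between HL60 and OCIAML3 in 4 members, with 3 higher, where 3.46% were higher and 1.75% lower. Without the 2 libraries these counts were 18, all lower (9.07% of 19569 genes lower and 4.07% higher), and 4, with 3 higher (4.19% higher and 2.66% lower).

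Between HL60 and MOLM13 the effect of cytarabine differed in 3 members, 2 higher and 1 lower, where 5.73% of all genes were higher and 2.65% lower. ACSS2, with log2 fold changes of 1.23 in HL60 and 0.19 in MOLM13, differed by 1.09 ± 0.24. Between HL60 and OCIAML3 it differed in 13 members, 3 higher and 10 lower, where 12.6% were higher and 10.5% lower, and between MOLM13 and OCIAML3 in AACS and ME1, both higher in MOLM13, where 1.89% were higher and 2.67% lower. Without the 2 libraries 12 members differed between HL60 and OCIAML3, 4 higher and 8 lower (13% and 11.2% of all genes), and 4 between MOLM13 and OCIAML3, where AACS, ME1 and TM7SF2 had the higher effect in MOLM13 and FASN the lower (3.97% and 5.33%). The shares of members between HL60 and MOLM13 and between MOLM13 and OCIAML3 were thus near those of all genes. After the combination 8 members had a higher effect and 3 a lower one in HL60 than in MOLM13, where 17.3% of all genes were higher and 10.1% lower. These shares of members were near those of all genes as well. FASN (-0.81 ± 0.28) and FDFT1 (-1.10 ± 0.21) were lowered more in HL60, and FADS1 (2.35 ± 0.39), ACSS2 (1.40 ± 0.24) and ACAT2 (1.20 ± 0.37) were on the higher side. Against OCIAML3 the combination differed in 14 members in HL60, 3 higher and 11 lower, where 14.3% were higher and 12.4% lower, and in 15 in MOLM13, all lower, where 8.71% were lower and 3.48% higher. Without the 2 libraries 13 members differed in HL60, 4 higher and 9 lower (13.3% and 11.3% of all genes), and 5 in MOLM13, all lower (4.76% lower and 2.01% higher). Single libraries moved the count of 15 to between 2, without MOLM13 combination replicate 3, and 23, without MOLM13 combination replicate 1.

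**Figure D4:**
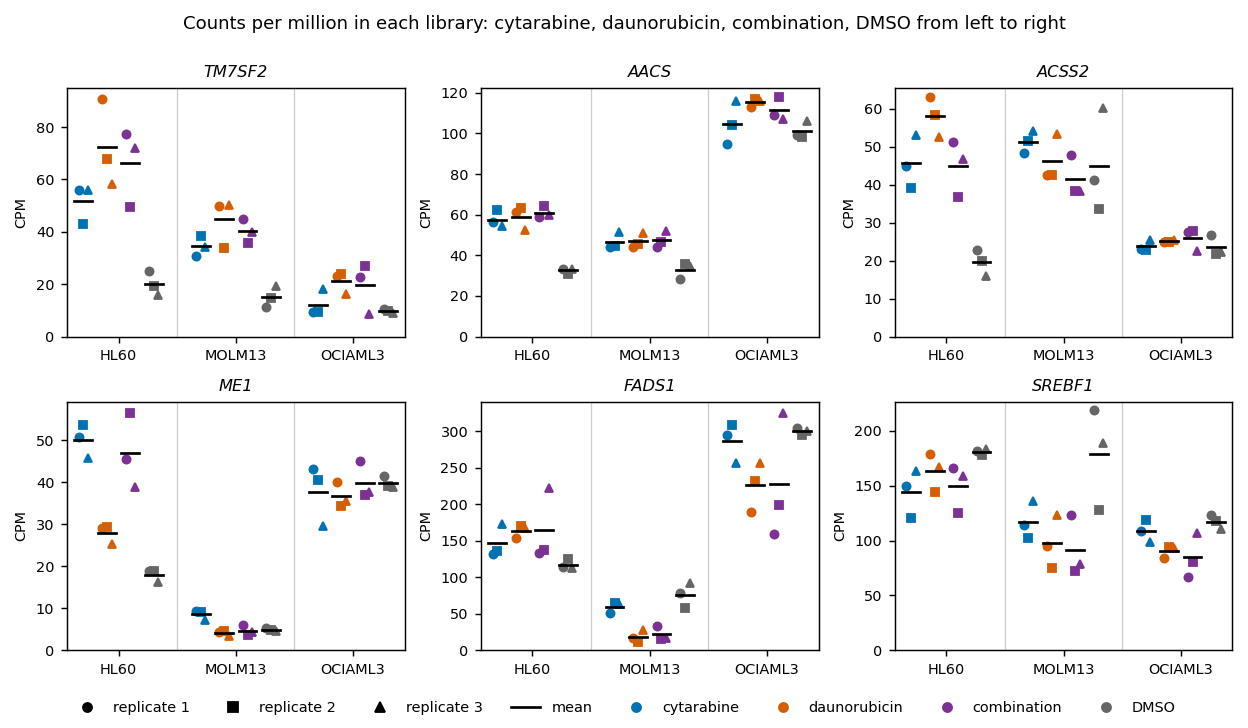
CPM of TM7SF2, AACS, ACSS2, ME1, FADS1 and SREBF1 in each library (symbols are replicates, lines the mean of 3), with cytarabine, daunorubicin, combination and DMSO from left to right in each cell line. TM7SF2 lies above DMSO in every treated library of HL60 and MOLM13, ACSS2 above DMSO in every treated library of HL60 alone, and FADS1 below every DMSO library after daunorubicin and the combination in MOLM13.

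Of the 4 regulators and carriers, INSIG1 and SREBF2 fell in HL60 and INSIG1 and SREBF1 in MOLM13, and none was called higher in these lines. INSIG1, itself a target of the factors it restrains, had 128, 142 and 177 CPM after cytarabine, 293, 288 and 398 CPM after daunorubicin, 130, 91.1 and 182 CPM after the combination and 389, 355 and 334 CPM in DMSO in HL60. It fell after cytarabine (-1.27 ± 0.21) and after the combination (-1.42 ± 0.21), and had no call after daunorubicin (-0.14 ± 0.21, FDR 0.679). In MOLM13 INSIG1 had 132, 119 and 139 CPM after cytarabine, 141, 86.4 and 156 CPM after daunorubicin, 151, 86.1 and 105 CPM after the combination and 303, 148 and 336 CPM in DMSO, and fell after all 3 (-1.01 ± 0.30, -1.04 ± 0.30 and -1.20 ± 0.30). DMSO replicate 2 lay within the range of the daunorubicin and combination libraries, and the call after cytarabine was lost without any 1 of 5 libraries. In OCIAML3 INSIG1 had 78.7, 90.1 and 71.2 CPM after cytarabine, 67, 75.9 and 71.9 CPM after daunorubicin, 64.1, 71.6 and 83.7 CPM after the combination and 87, 84.2 and 84.2 CPM in DMSO, and without the 2 libraries it fell after daunorubicin (-0.25 ± 0.07) and after the combination (-0.33 ± 0.08).

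SREBF2, the factor most tied to the sterol arm, had 301, 351 and 352 CPM after cytarabine, 407, 398 and 442 CPM after daunorubicin, 301, 308 and 308 CPM after the combination and 456, 464 and 470 CPM in DMSO in HL60. It fell after cytarabine (-0.47 ± 0.09) and the combination (-0.60 ± 0.09). In MOLM13 it had 250, 252 and 275 CPM after cytarabine, 269, 244 and 289 CPM after daunorubicin, 287, 245 and 253 CPM after the combination and 305, 266 and 332 CPM in DMSO, with no call. In OCIAML3 it had 250, 266 and 267 CPM after cytarabine, 243, 267 and 259 CPM after daunorubicin, 238, 244 and 272 CPM after the combination and 266, 279 and 270 CPM in DMSO, and fell after the combination without the 2 libraries (-0.17 ± 0.06).

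SREBF1, which favours the fatty acid genes, was called in MOLM13, and in HL60 only with the replicate block. Between these lines the effect on SREBF1 differed after daunorubicin and the combination, that on SREBF2 after the combination, and neither after cytarabine. In HL60 SREBF1 had 150, 121 and 163 CPM after cytarabine, 179, 144 and 167 CPM after daunorubicin, 166, 125 and 159 CPM after the combination and 182, 178 and 183 CPM in DMSO. It had no call (FDR 0.0569 after cytarabine) unless the replicate block was added, when it fell after cytarabine and the combination. In MOLM13 it had 114, 102 and 136 CPM after cytarabine, 95.2, 74.8 and 123 CPM after daunorubicin, 123, 72.7 and 78.3 CPM after the combination and 219, 128 and 189 CPM in DMSO. It fell after daunorubicin (-0.87 ± 0.25) and after the combination (-0.97 ± 0.25), and the first of these calls was lost without DMSO replicate 1 (FDR 0.0527). In OCIAML3 it had 109, 119 and 98.3 CPM after cytarabine, 84.1, 93.9 and 93.7 CPM after daunorubicin, 66.6, 80.6 and 107 CPM after the combination and 123, 118 and 111 CPM in DMSO, and without the 2 libraries it fell after daunorubicin (-0.38 ± 0.08) and after the combination (-0.67 ± 0.09). Of the SREBF1 counts, between 24.7% and 52.4% per library came from transcripts annotated as not coding and between 46.2% and 74.5% from coding transcripts of the upstream start. Summed over protein-coding transcripts alone, the log2 fold change was -0.93 in MOLM13 after daunorubicin and -1.21 after the combination (FDR 0.0248 and 0.00688). STARD4, which carries cholesterol between membranes, rose in OCIAML3 without the 2 libraries after daunorubicin (0.23 ± 0.07) and had no call elsewhere.

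The medians of the arms are set side by side here, and no test was run on their difference. In HL60 the sterol and fatty acid medians were -0.38 and -0.47 after cytarabine and -0.57 and -0.58 after the combination, while in MOLM13 daunorubicin gave -1.01 and -1.18 and the combination -0.96 and -1.14. In OCIAML3 without the 2 libraries the fatty acid arm had the lower median, with -0.24 after daunorubicin and -0.64 after the combination, against -0.02 and -0.08 for the sterol arm. Without the replicate block, every call on the higher side in the fatty acid arm was AACS, ACSS2, ME1 or FADS1, while in the sterol arm TM7SF2 was called higher in each comparison that had calls, with MVD, GGPS1, HSD17B7 or MSMO1 beside it in some; the block added ACAT2, IDI1 and FDPS in HL60 after daunorubicin. TM7SF2 also rose when protein-coding transcripts alone were summed, with log2 fold changes of 1.45, 1.93 and 1.83 in HL60 and 1.34, 1.85 and 1.73 in MOLM13 after cytarabine, daunorubicin and the combination. Because the comparisons within a line share their DMSO libraries, likeness between treatments was not measured.

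**Figure D5:**
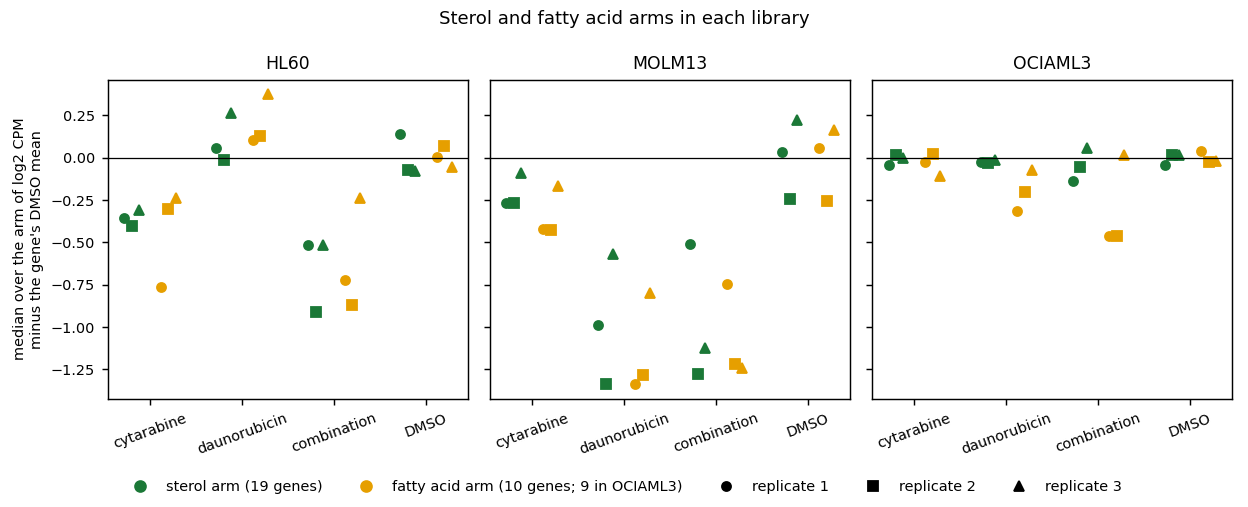
Median over the genes of each arm of the log2 CPM minus the gene's mean in DMSO, for each library (without ELOVL6 in OCIAML3), with cytarabine, daunorubicin, combination and DMSO from left to right in each cell line. In MOLM13 the daunorubicin and combination libraries lie lowest in both arms (sterol arm -1.34 to -0.51), in HL60 the daunorubicin libraries lie near DMSO (sterol arm -0.01 to 0.26), and in OCIAML3 combination replicate 3 lies at the level of DMSO.

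Genes around the pathway were counted in lists drawn up from pathway knowledge, each to be read against the shares of all genes called. In HL60 cytarabine gave 23.6% higher and 22% lower, daunorubicin 12.8% and 9.14%, and both drugs 28.1% and 25.3%, and in MOLM13 the same treatments gave 17.1% and 17.8%, 26.9% and 25.7%, and 27% and 26%. In OCIAML3 the counts are those without the 2 libraries, against 15.3% and 16% of all genes for daunorubicin and 20.1% and 21.6% for both drugs, since 0 genes of any list were called after cytarabine or with all libraries, as was 0% of all genes. Of 9 other sterol enzymes, 1 rose and 5 fell in HL60 after cytarabine, 1 rose and 1 fell after daunorubicin, and 0 rose and 6 fell after the combination. In MOLM13 0 rose and 3, 5 and 4 fell with these treatments, and in OCIAML3 2 rose and 4 fell after daunorubicin and 2 rose and 5 fell after the combination. LBR, which shares the reaction of TM7SF2, had 244, 296 and 231 CPM after cytarabine, against 467, 467 and 410 CPM in DMSO in HL60 (-0.80 ± 0.11), and 80.4, 60.2 and 88.2 CPM after daunorubicin, against 209, 164 and 194 CPM in DMSO in MOLM13 (-1.31 ± 0.18). TM7SF2 rose in both of these comparisons.

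Of 12 genes of SREBP processing, 1 rose in HL60 with each treatment, and 5 fell with cytarabine, 2 with daunorubicin and 7 with both drugs. In MOLM13 1 rose likewise, and 5, 2 and 1 fell, and in OCIAML3 0 rose and 2 fell after daunorubicin and 1 rose and 1 fell after the combination. SCAP, which escorts the factors out of the endoplasmic reticulum, had 108, 118 and 111 CPM after cytarabine, against 139, 143 and 143 CPM in DMSO in HL60 (-0.34 ± 0.08). Of the genes of sterol efflux and its control by LXR, 0, 1 and 1 of 5 rose in HL60 and 1, 2 and 1 of 5 in MOLM13 after cytarabine, daunorubicin and the combination, 1 and 3 of 6 rose in OCIAML3 after the last 2 of these, and 0 fell. ABCA1, the cholesterol exporter, had 6.61, 6.94 and 7.58 CPM after daunorubicin, against 1.62, 1.88 and 2.45 CPM in DMSO in MOLM13 (1.82 ± 0.35). Of 7 genes of sterol storage and trafficking, 3 rose and 3 fell in HL60 after cytarabine, 2 rose and 0 fell after daunorubicin and 4 rose and 3 fell after the combination. In MOLM13 3 rose and 1 fell after each treatment, and in OCIAML3 3 rose and 0 fell after daunorubicin and 4 rose and 1 fell after the combination. SOAT1, which esterifies cholesterol, rose in HL60 after cytarabine (0.82 ± 0.10) and fell in MOLM13 after daunorubicin (-0.74 ± 0.13).

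The isoprenoid branch leads from farnesyl diphosphate to ubiquinone, dolichol and protein prenylation. Of its 11 genes, 0 rose in HL60 while 6 fell with cytarabine, 4 with daunorubicin and 7 with both drugs. In MOLM13 1 rose after each treatment while 4, 6 and 6 fell, and in OCIAML3 0 rose while 3 fell after daunorubicin and 4 after the combination. NUS1, a subunit of the enzyme that makes dolichol, had 87.7, 79.2 and 111 CPM after the combination, against 268, 273 and 280 CPM in DMSO in HL60 (-1.56 ± 0.14). Of 18 tested genes of fatty acid elongation, activation and esterification, 6 rose and 7 fell in HL60 after cytarabine, 5 rose and 1 fell after daunorubicin, and 7 rose and 8 fell after the combination. In MOLM13 2 rose and 3 fell after cytarabine and 3 rose and 9 fell after each of the other treatments, while in OCIAML3, with 19 tested, 3 rose and 5 fell after daunorubicin and 6 rose and 5 fell after the combination. ACSL3, which activates long-chain fatty acids, fell in MOLM13 after daunorubicin (-1.16 ± 0.22), and ACACB, whose malonyl-CoA restrains oxidation, rose in HL60 after cytarabine (1.97 ± 0.17).

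Of 11 tested genes of fatty acid oxidation, 2 rose and 3 fell in HL60 after cytarabine, 2 rose and 1 fell after daunorubicin, and 6 rose and 3 fell after the combination. Of 12 tested in MOLM13, 4 rose and 0 fell, 7 rose and 1 fell, and 6 rose and 2 fell with these treatments, and of 12 in OCIAML3 5 rose after daunorubicin and 7 after the combination while 0 fell. ACADVL, which starts the oxidation of very long chains, was among those that rose in MOLM13 after daunorubicin (0.74 ± 0.08). Of 6 tested genes of NADPH supply other than ME1, 0 rose in HL60 and 4, 1 and 4 fell after cytarabine, daunorubicin and the combination, with TKT of the pentose phosphate pathway at -0.96 ± 0.10 after cytarabine. Of 7 in MOLM13, 1 rose and 1 fell after cytarabine and 2 rose and 4 fell after each of the other treatments, and in OCIAML3 1 rose and 0 fell after daunorubicin and 3 rose and 3 fell after the combination.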

How the data were processed

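Total RNA from 3 acute myeloid leukemia cell lines was sequenced by the authors as unstranded paired-end libraries, 3 per treatment and line. Reads were checked with FastQC 0.11.9 and assigned to the Ensembl transcripts of GRCh38 by Salmon 1.8.0, and the Ensembl release is not given in the sources used here; per the submitters' notes and the paper, edgeR 3.38.1 was used downstream. The deposited values are estimated counts per transcript, not normalized, and the TPM that the authors' Salmon run computed from counts and effective lengths.

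Estimated counts of 235378 transcripts out of 252199 were matched on their IDs to 59041 genes (GENCODE release 44), while 16821 transcripts that held between 3.993% and 4.518% of the counts were left out, so a gene with a copy among them would be undercounted. Counts were summed per gene and rounded. For each line, genes were kept with filterByExpr (min.count 10, min.total.count 15), scaled by TMM, and tested with glmQLFit and glmQLFTest of edgeR 4.0.16 in R 4.3.3 over its 12 libraries, with Benjamini-Hochberg adjustment over all genes. The standard error is the size of the log2 fold change over the square root of F. CPM use the TMM sizes of each line, and levels of different genes were compared in TPM alone. Line differences were interactions over all 36 libraries. A call is an FDR under 0.05; calls over 2-fold add a log2 fold change over 1, the study's rule. A chi-square test of counts between replicates found every pair to differ beyond sampling noise, so no library was taken for a repeat of another. HL60 libraries with the same replicate number deviated together (correlations of 0.181 to 0.507 in every pair of groups), so blocked values stand beside the HL60 results.

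The members and lists were chosen with earlier results of these data known. Values in every library were given for SREBF1, SREBF2, INSIG1 and, per comparison, up to 4 members per arm and direction with the largest change among those called; genes of other lists were named up to 3 per list by the same rule. The fits were tested on simulated data. Alternatives were RLE scaling, DESeq2 1.42.0, other filters, a length offset, protein-coding genes or transcripts alone, 1 fit of all lines, a replicate block, AACS in the sterol arm and leaving out libraries. Tables were made with pandas 2.3.3 and numpy 2.4.6 under Python 3.11.15, and plots with matplotlib 3.10.9.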

Additional observations from a re-analysis of the deposited data

Results flagged for a closer look

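Some members had effects that differed between lines in interactions over all 36 libraries with edgeR. After daunorubicin 24 members differed between HL60 and MOLM13, where 13.9% of all genes were higher and 6.69% lower. Between HL60 and OCIAML3 4 differed (3.46% and 1.75%), and between MOLM13 and OCIAML3 17 (3.29% and 7.47%). After cytarabine the numbers for the same pairs were 3 (5.73% and 2.65%), 13 (12.6% and 10.5%) and 2 (1.89% and 2.67%). After the combination they were 11 (17.3% and 10.1%), 14 (14.3% and 12.4%) and 15 (3.48% and 8.71%). Between HL60 and MOLM13 the members' shares after cytarabine and the combination were near those of all genes. The same held between MOLM13 and OCIAML3 after cytarabine. FADS1 had a combination effect that was 2.35 higher in HL60 than in MOLM13 on the log2 scale (FDR 3.9e-05), with log2 fold changes of 0.49 in HL60 and -1.78 in MOLM13, which are of opposite sign. HL60 and MOLM13 shared their medium, while OCIAML3 was grown in another with more serum, so the line and the medium cannot be told apart in the pairs with OCIAML3. Cell death after either drug alone also differed between the lines in the paper, and its part was not tested.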

How the results depend on the processing

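Of 6564 repeats of single member results, 6296 kept their direction and side of the threshold, 175 passed it newly, 93 no longer passed, and 0 called members reversed. These repeats include results without a call. Of the 112 member calls against DMSO with all libraries, 20 were lost when some 1 library was left out. With a change over 2-fold required, the members called were 9, 2 and 12 in HL60 and 3, 17 and 17 in MOLM13 after cytarabine, daunorubicin and the combination. The sterol median of HL60 after cytarabine was -0.3302 with AACS in that arm, -0.3258 with protein-coding genes, -0.3181 with protein-coding transcripts (an alternative chosen after seeing the data), -0.3295 in 1 fit of all lines, and -0.4618 to -0.2620 when 1 library was left out. A length offset gave a fatty acid median of -0.8014 in MOLM13 after daunorubicin. The sterol median of OCIAML3 after daunorubicin, near 0 throughout, was 0.0151 with AACS in that arm, -0.0328 without a filter, -0.0076 with at least 1 CPM in 3 libraries, -0.0319 with the length offset, -0.0054 with protein-coding genes, 0.0320 with protein-coding transcripts, -0.0021 in 1 fit of all lines, and -0.0328 to 0.0135 when 1 library was left out; after cytarabine that range was -0.0457 to 0.0062. For OCIAML3 after daunorubicin DESeq2 called 1 member and 1 fit of all lines 1.

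Leaving out single libraries, or both OCIAML3 libraries that stood apart, gave 11 to 22 members between the drugs in HL60, 3 to 16 in MOLM13 and 0 to 8 in OCIAML3, and 7 to 15 members after cytarabine in MOLM13. In OCIAML3 it gave 0 to 11 members after daunorubicin (7 without combination replicate 3 alone), 0 to 21 after the combination (19 without combination replicate 3 alone) and fatty acid medians of -0.6366 to -0.1091 after the combination. Members whose effect differed between lines numbered 7 to 15 for HL60 and MOLM13 and 2 to 23 for MOLM13 and OCIAML3 after the combination, 6 to 14 for HL60 and OCIAML3 and 0 to 7 for MOLM13 and OCIAML3 after cytarabine, and 9 to 21 for MOLM13 and OCIAML3 after daunorubicin. The causes were not tested.

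With the replicate number as a block, 24, 11 and 28 members passed in HL60 after cytarabine, daunorubicin and the combination. In MOLM13 same-numbered libraries correlated at 0.0606 to 0.308 for each pair of groups, with single pairs of libraries between -0.0371 and 0.571. A weaker pairing than in HL60 is thus possible there, and the MOLM13 calls above were made without the block. In OCIAML3 the correlations ran from -0.28 to 0.529 by pair of groups and from -0.419 to 0.621 by single pair. The numbers were therefore taken there as names only. The block then gave 17, 28 and 29 members in MOLM13, 15 between its drugs and 0 in OCIAML3. Across lines it gave 14, 19 and 24 members after the combination, 5, 14 and 4 after cytarabine and 28, 4 and 22 after daunorubicin, for HL60 and MOLM13, HL60 and OCIAML3, and MOLM13 and OCIAML3 in that order. The shares of all genes called under the block are given for HL60 alone, with the results above, and there they rose with the block too. The other blocked counts thus lack a share to be read against and show no stronger effect on the members.

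Some values are limited by what was counted. FADS1 and FADS2, CYP51A1 and AKAP9, FDPS and RUSC1-AS1, and ACAT2 and TCP1 overlap in the annotation, and unstranded reads in an overlap cannot be told apart. OCIAML3 has 2 libraries of doubtful label, HL60 and MOLM13 share a medium that OCIAML3 does not, and 3 libraries per group limit the size of a change that can be called.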
